A study of Mus musculus with 4 samples.

Results

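The genes examined were 7 muscle genes best known from heart, from fetal muscle or from muscle under mechanical load, namely Actc1, Tnnt2, Myl4, Casq2, Csrp3, Ankrd1 and Xirp1. They were the rows of the 32285 measured features whose symbol matched one of these names, and all 7 were found. They were picked because earlier results on these sections showed a steep drop of Actc1 and a region led by Myl4, Tnnt2 and Casq2 at 7 days post injury (dpi), so their levels over time and by region are given as descriptions with no test. Spatial transcriptomes came from fresh frozen sections of tibial muscle of Nse-Bmp4 mice of the C57BL/6 strain, 6-8 week old, whose transgene drives Bmp4 from a neuron-specific enolase promoter. All sections carried the transgene, and there was no section of a mouse without it. One group was uninjured muscle (day 0), and the other groups were muscle taken 1, 3 and 7 days after a cardiotoxin injury, which in these mice is followed by bone formation inside the muscle. There was 1 section per group, and 3 muscles were mixed for a group according to the labels, although how they map onto a section is not stated.

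A sarcomere is built from thin actin filaments, which carry the troponin complex, and thick myosin filaments with their light chains, anchored at Z-discs. Many of its parts exist as isoforms from separate genes, and developing skeletal muscle makes isoforms that later stay on mainly in the heart before adult fast or slow isoforms replace them. The same isoforms return for a time when adult muscle regenerates. Actc1 encodes cardiac alpha-actin and Tnnt2 cardiac troponin T, both of the thin filament. Myl4 encodes the atrial and embryonic essential myosin light chain, and Casq2 the cardiac and slow-fibre calsequestrin, which stores calcium in the sarcoplasmic reticulum. Csrp3 encodes muscle LIM protein, Ankrd1 the ankyrin repeat protein CARP and Xirp1 an actin-binding Xin repeat protein, which are known for their response to load and damage at Z-discs and cell junctions.

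RefSeq promoter windows of 300 bases, from 250 before to 50 after a start site on build GRCm38.p6, were matched for 6 of the 7 genes. Windows of 4 genes are shown, 1 for each course over time described below, because genes that move together invite a look at the letters upstream of them. Capitals mark matches to an MCAT element (CATTCC on either strand), a TATA box (TATAAA), a CArG box or an MEF2 site.
Actc1 promoter, chr2:114052826-114053125, minus strand: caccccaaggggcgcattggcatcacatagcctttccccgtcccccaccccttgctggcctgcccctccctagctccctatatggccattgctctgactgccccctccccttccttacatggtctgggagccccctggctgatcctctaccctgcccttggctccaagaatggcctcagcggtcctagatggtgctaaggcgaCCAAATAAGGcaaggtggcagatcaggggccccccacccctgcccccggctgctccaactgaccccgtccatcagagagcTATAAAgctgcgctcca
Ankrd1 promoter, chr19:36119795-36120094, minus strand: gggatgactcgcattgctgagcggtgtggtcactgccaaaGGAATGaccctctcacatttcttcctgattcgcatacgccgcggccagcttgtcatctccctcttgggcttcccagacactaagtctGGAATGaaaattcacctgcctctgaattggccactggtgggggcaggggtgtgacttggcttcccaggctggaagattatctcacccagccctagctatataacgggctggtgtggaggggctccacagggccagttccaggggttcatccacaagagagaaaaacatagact
Tnnt2 promoter, chr1:135836084-135836383, plus strand: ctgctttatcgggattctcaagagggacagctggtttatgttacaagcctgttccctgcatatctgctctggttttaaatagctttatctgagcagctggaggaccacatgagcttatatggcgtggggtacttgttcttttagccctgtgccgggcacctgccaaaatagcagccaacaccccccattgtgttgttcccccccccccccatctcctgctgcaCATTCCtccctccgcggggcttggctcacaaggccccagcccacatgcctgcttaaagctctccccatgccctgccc
Casq2 promoter, chr3:102086165-102086464, plus strand: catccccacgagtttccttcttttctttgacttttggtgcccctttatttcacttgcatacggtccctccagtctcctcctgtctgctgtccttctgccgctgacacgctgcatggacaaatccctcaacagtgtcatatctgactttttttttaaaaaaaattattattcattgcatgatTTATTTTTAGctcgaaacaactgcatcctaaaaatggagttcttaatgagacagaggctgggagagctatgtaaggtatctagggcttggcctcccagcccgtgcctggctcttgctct
Counted with the first transcribed base as 1, the Actc1 window held a CArG box match at position -47 and TATAAA at position 34, after the annotated start. CArG boxes are bound by serum response factor, and 1.63% of 32851 promoter windows of this length held a match. The Ankrd1 window held 2 MCAT matches on the minus strand, at positions -210 and -123, and the Tnnt2 window shown held 1 at position -27. A second Tnnt2 window, of a start site farther from the annotated start of the gene, held no MCAT match. MCAT elements are bound by TEAD factors, and 14.7% of all windows held one, beside 2 of the 8 windows of these genes. The windows of Csrp3, which ran with Ankrd1, and of Myl4, which ran with Tnnt2, held none. They held no CArG box, MEF2 site or TATAAA match either, so the matches shown were not found in those windows. Xirp1 had no window, so the course of Csrp3 and Ankrd1 was searched only in part. The Myl4 window, bases 104550413 to 104550712 of chromosome 11, lay inside the annotated span of the gene, which starts at base 104546017. The Casq2 window held an MEF2 site match at position -69, a match that 3.19% of all windows shared. The E-box (CANNTG), bound by myogenic factors such as MyoD, was found in 7 of the 8 windows of these genes and in 72.3% of all windows. These are matches of letters, and binding was not measured.

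The sections held 2107 to 3032 spots and 16777832 to 56113066 UMIs (unique molecular identifiers, which count captured RNA molecules). At 1 dpi a spot had a median of 6322 UMIs, the fewest, and in the other sections 12119.5 to 21029. Spot barcodes come from a common set, and 1341 of the 4078 barcodes seen were used in all 4 sections, so spots were kept apart by section. Levels are UMI counts scaled to a total of 1000000 in every section (CPM), with exact Poisson intervals, and ratios between sections have conditional binomial intervals, all at 95% and for counting error only. Without replicate sections, the spread between animals is unknown and no p-value was computed. On the CPM scale the median feature shifted by 0.15 on the log2 scale at 1 dpi, 0.58 at 3 dpi and 0.65 at 7 dpi relative to day 0, so changes are to be read against those shifts. The muscle reference list (Ttn, Neb, Des, Ldb3, Tcap, Myom1, Myot, Ckm and Cox6a2) had 49085 CPM at day 0, 28932 at 1 dpi, 17929 at 3 dpi and 31833 at 7 dpi. Each gene is therefore also given per 10000 UMIs of that list. Its 9 genes did not move together, with log2 ratios to day 0 from -0.88 to 1.27 at 7 dpi. In the uninjured section its share was lowest in a region led by slow-fibre genes, so it does not measure the amount of muscle alone.

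The 7 genes followed different courses after injury. Actc1 was far lower at each injured day than in uninjured muscle. Csrp3, Ankrd1 and Xirp1 were highest at 1 dpi, whereas Tnnt2 and Myl4 were near their day 0 level at 1 dpi and much higher at 3 and 7 dpi. Casq2 was lowest at 1 dpi and stood within 2-fold of day 0 later. A CPM ratio past 2-fold was counted as a difference. At 1 dpi 3 genes were higher and 2 lower than at day 0, where 17.4% and 11.4% of 15091 features with at least 10 UMIs in both sections together were past the same fold. At 3 dpi 4 were higher and 1 lower, beside 33.3% and 8.26% of all features, and at 7 dpi 3 were higher and 2 lower, beside 32.7% and 2.13%. Between 1 and 3 dpi 3 genes were higher at the later day and 1 lower, beside 18.1% and 3.13% of features, and between 3 and 7 dpi 1 was higher and 3 lower, beside 16.1% and 11.8%. Since these contrasts were in view when the genes were chosen, nothing is read from the counts. The median log2 ratio of the 7 genes to day 0 was 0.02 at 1 dpi, 3.77 at 3 dpi and 0.61 at 7 dpi, a summary that hides opposite changes.

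**Figure D1:**
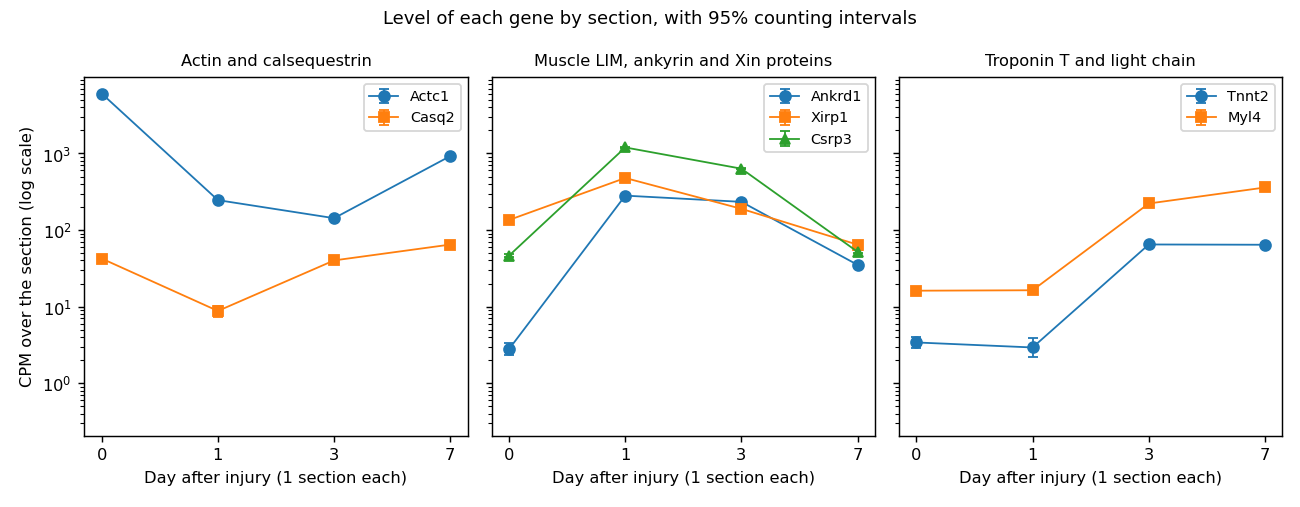
CPM of each gene (log axis) in the 4 sections by day, 1 section per day; vertical bars are exact Poisson intervals at 95% and are mostly smaller than the points. Actc1 goes from 6066 CPM at day 0 to 143 at 3 dpi, Csrp3, Ankrd1 and Xirp1 are highest at 1 dpi, and Tnnt2 and Myl4 are high at 3 and 7 dpi.

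Actc1 (chromosome 2, bases 114047282 to 114052875) had 6066 CPM (6043 to 6089) in uninjured muscle, 246 (238 to 253) at 1 dpi, 143 (140 to 146) at 3 dpi and 926 (916 to 935) at 7 dpi. The intervals of the 4 sections did not overlap, and day 0 was the highest. The level was 24.7-fold lower (23.9 to 25.5) at 1 dpi than at day 0, 42.5-fold lower (41.6 to 43.5) at 3 dpi and 6.55-fold lower (6.49 to 6.62) at 7 dpi. Between 3 and 7 dpi it was 6.48-fold higher (6.33 to 6.64). Muscle RNA as a whole was lower too, but by less. Per 10000 UMIs of the muscle reference list, Actc1 had 1236 UMIs at day 0, 85.0 at 1 dpi, 79.6 at 3 dpi and 291 at 7 dpi, so that 1 and 3 dpi were close on this scale. Fewer fibres that make Actc1 and less Actc1 RNA in each fibre cannot be told apart in these counts.

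The skeletal alpha-actin gene Acta1 serves as the adult counterpart of Actc1. Acta1 had 58809.5 CPM at day 0, 29762 at 1 dpi, 22224 at 3 dpi and 31408 at 7 dpi. Actc1 made up 9.35% of the UMIs of the 2 actin genes at day 0, 0.819% at 1 dpi, 0.638% at 3 dpi and 2.86% at 7 dpi. The change was thus one of isoform share and not only of actin RNA. Such shares are of UMIs, not divided by transcript length. The 2 genes have near-identical coding sequences, and how reads that fit both were counted is not given in the sources used here.

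Within the uninjured section, Actc1 was widespread but uneven. It was detected in every spot, at a median of 110 UMIs, and 525 of the 2107 spots (24.9%) held 50% of its UMIs. In clusters of spots with alike RNA, called regions and built without the 130 listed genes, Actc1 ranged from 2606 to 8561 CPM. The highest was region 1, with 789 spots, whose leading genes by fold were Mical2, Actc1 and Mybph. The region whose leading genes were the slow-fibre genes Myh7, Tnnt1 and Tnnc1, region 3 with 439 spots, had 2972 CPM. Across spots thinned to 2000 UMIs, Spearman's rho of Actc1 was 0.608 with the summed fast myofibre list and -0.469 with the slow and cardiac sarcomere list (n = 2090 spots, which share 1 section and 1 library). With the share of muscle reference UMIs held fixed, the 2 values were 0.427 and -0.368. That share was itself lowest in the slow-fibre region 3, among regions of at least 20 spots.

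Actc1 was again uneven at 7 dpi, with its highest level in the region that was also highest for Tnnt2 and Myl4. Region 7 of that section, with 230 spots, had 2046 CPM and 38.8% of the Actc1 UMIs, whereas region 1, the largest with 906 spots, had 1134 CPM and 24.0%. The region with the least, led by the cartilage genes Col9a1 and Col2a1, had 259 CPM. At 1 dpi the regions ran from 59.5 CPM in the slow-fibre region to 330 CPM. The level therefore lay below the lowest uninjured region in every region of the 3 injured sections.

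Tnnt2 (chromosome 1, bases 135836315 to 135852268) was scarce in uninjured muscle. It had 3.40 CPM (2.87 to 3.99) at day 0, 2.92 (2.16 to 3.86) at 1 dpi, 64.7 (62.7 to 66.9) at 3 dpi and 64.2 (61.8 to 66.7) at 7 dpi. The intervals at day 0 and 1 dpi overlapped, as did those at 3 and 7 dpi, and the first and last pairs were far apart. The ratio to day 0 was 19.1-fold (16.2 to 22.6) at 3 dpi and 18.9-fold (16.0 to 22.5) at 7 dpi. Against Tnnt3, the fast skeletal troponin T, Tnnt2 went in share from 0.0167% of the UMIs of the pair at day 0 and 0.0224% at 1 dpi to 0.831% at 3 dpi and 0.463% at 7 dpi. Even at its height it was a small part of the troponin T RNA.

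Myl4 (chromosome 11, bases 104546017 to 104587215) had 16.1 CPM (14.95 to 17.4) at day 0, 16.3 (14.4 to 18.4) at 1 dpi, 222 (218 to 226) at 3 dpi and 360 (354 to 365) at 7 dpi. The first 2 sections overlapped in their intervals, and the last was the highest. It was 13.8-fold higher (12.8 to 14.9) at 3 dpi and 22.3-fold higher (20.7 to 24.1) at 7 dpi than at day 0. Of the UMIs of Myl4 and the fast skeletal light chain gene Myl1, 0.0875% were Myl4 at day 0, 0.139% at 1 dpi, 3.61% at 3 dpi and 3.89% at 7 dpi. The annotated span of Myl4 overlaps that of Cdc27 and 4 other annotated genes, and the sources do not state whether strand was used in counting. The other 6 genes have no annotated overlap.

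The 3 and 7 dpi sections were also those in which genes of new muscle fibres were high. Of the 12 genes of the developmental and regenerating muscle list, 2 were past 2-fold higher and 5 lower at 1 dpi, 10 higher and 1 lower at 3 dpi, and 8 higher and 1 lower at 7 dpi. Of all features, 17.4%, 33.3% and 32.7% were past 2-fold higher at those days and 11.4%, 8.26% and 2.13% lower. The list's median log2 ratio to day 0 was -0.64, 2.34 and 2.15, beside medians of 0.15, 0.58 and 0.65 over all features. The embryonic myosin gene Myh3 had 1.73 CPM at day 0, 1.19 at 1 dpi, 107 at 3 dpi and 73.7 at 7 dpi. The neonatal myosin gene Myh8 had 3.10, 1.01, 6.88 and 179 CPM in the same order, and so became high at 7 dpi and not at 3 dpi. Myog, which encodes the differentiation factor myogenin, had 51.6, 31.5, 225 and 73.3 CPM, and the fusion gene Mymx had 1.78, 0.417, 43.9 and 9.11 CPM. Mybph, which is on the same list, had 961, 296, 152 and 426 CPM and so ran with Actc1 rather than with Myh3.

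Over the 28 regions of at least 20 spots in the 4 sections, the genes with the pattern most like Tnnt2, by Pearson's r of log2(CPM + 1) among 5314 genes with 50 CPM or more in a region, were Myl4 (0.92), Myh3 (0.92), Mymx (0.89), Hes6 (0.89) and Chrng (0.89). Those most like Myl4 were Myh3 (0.95), Tnnt2 (0.92), Hes6 (0.88), Srpx2 (0.88) and Chrng (0.86). Chrng encodes the fetal subunit of the muscle acetylcholine receptor. Those most like Actc1 were Mafa (0.92), Mybph (0.87), Hacd1 (0.86), B230312C02Rik (0.86) and Ccdc43 (0.85). No gene of the other courses was on the Actc1 list, and its own r was -0.16 with Tnnt2 and -0.26 with Myl4. These correlations include the differences between days, and regions of 1 section share a library.

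Casq2 (chromosome 3, bases 102086415 to 102146514) had 42.4 CPM (40.5 to 44.4) at day 0, 8.76 (7.40 to 10.3) at 1 dpi, 40.1 (38.4 to 41.8) at 3 dpi and 64.6 (62.2 to 67.1) at 7 dpi. The 1 dpi section was lowest, and day 0 and 3 dpi overlapped. The level was 4.84-fold lower (4.09 to 5.76) at 1 dpi than at day 0. It was 1.52-fold higher (1.43 to 1.62) at 7 dpi, less than the median feature's shift of 0.65 on the log2 scale, since its log2 ratio was 0.61. Casq1, the fast-fibre calsequestrin, was also lower after injury, with 5055 CPM at day 0, 1299 at 1 dpi, 1011 at 3 dpi and 2466 at 7 dpi. Casq2 was 0.832% of the UMIs of the pair at day 0, 0.670% at 1 dpi, 3.81% at 3 dpi and 2.55% at 7 dpi, so at 3 dpi its share was higher while its level overlapped day 0, and at 7 dpi both were higher.

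In uninjured muscle Casq2 lay where slow-fibre genes were high, with 71.6 CPM and 43.1% of its UMIs in region 3, against 25.2 CPM in region 1. At 1 dpi the slow-fibre region 7, which had 4.76% of the spots, held 40.1% of the Casq2 UMIs, at 41.3 CPM. At 3 dpi it was highest in region 3, with 95.6 CPM, whose leading genes were Myh3 but also the slow-fibre genes Tnni1, Myh7 and Tnnc1, and region 5, led by the slow-fibre genes Myl3 and Myl2, had 36.9 CPM. At 7 dpi it had 233 CPM in region 7, led by Myh8 and Myh3, above the 49.5 CPM of the slow-fibre region 4. The genes most like Casq2 over the regions were H19 (0.82), Tspan3 (0.82), Obsl1 (0.81), Hadha (0.80) and Gnas (0.79).

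Csrp3 (chromosome 7, bases 48830398 to 48848051) had 46.3 CPM (44.3 to 48.3) at day 0, 1200 (1183 to 1216) at 1 dpi, 633 (626 to 639) at 3 dpi and 51.8 (49.6 to 54.0) at 7 dpi. The middle 2 sections stood far above the first and last. The level was 25.9-fold higher (24.8 to 27.1) than day 0 at 1 dpi, 13.7-fold higher (13.1 to 14.3) at 3 dpi and 1.12-fold (1.05 to 1.19) at 7 dpi, where the median feature shifted by more. On the scale of the muscle reference list it had 9.43 UMIs per 10000 at day 0, 415 at 1 dpi, 353 at 3 dpi and 16.3 at 7 dpi. Csrp2, a related LIM gene known from smooth muscle and stromal cells, had 12.6, 11.2, 99.7 and 120 CPM. Csrp3 was 78.6% of the UMIs of these 2 genes at day 0, 99.1% at 1 dpi, 86.4% at 3 dpi and 30.2% at 7 dpi. This share moves with Csrp2 too and is not a share of isoforms within muscle fibres.

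Ankrd1 (chromosome 19, bases 36111965 to 36119844) had 2.78 CPM (2.31 to 3.32) at day 0, 282 (274 to 290) at 1 dpi, 233 (229 to 237) at 3 dpi and 35.0 (33.2 to 36.9) at 7 dpi. Every injured section was above day 0 by more than the counting intervals. The ratio to day 0 was 101-fold (84.6 to 122) at 1 dpi, 83.9-fold (70.2 to 101) at 3 dpi and 12.6-fold (10.5 to 15.3) at 7 dpi. At 1 dpi 99.8% of features had a lower ratio. Per 10000 UMIs of the muscle reference list, 3 dpi was the highest section, with 130 UMIs against 97.3 at 1 dpi. Its relative Ankrd2 had 67.3, 385, 277 and 25.2 CPM, which was below its uninjured level at 7 dpi, while Ankrd1 was not. Ankrd1 made up 3.97%, 42.2%, 45.7% and 58.2% of the UMIs of the pair.

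Xirp1 (chromosome 9, bases 120013755 to 120023598) was present in uninjured muscle, with 135 CPM (132 to 139). It had 478 (468 to 489) at 1 dpi, 189 (186 to 193) at 3 dpi and 64.3 (61.9 to 66.8) at 7 dpi. The 1 dpi section was highest and the 7 dpi section lowest, with no overlap of intervals. It was 3.54-fold higher (3.42 to 3.66) than day 0 at 1 dpi, 1.40-fold higher (1.35 to 1.44) at 3 dpi, which is less than the shift of the median feature, and 2.10-fold lower (2.01 to 2.20) at 7 dpi. Per 10000 UMIs of the muscle reference list it had 27.5 at day 0 and 20.2 at 7 dpi, a difference of under 2-fold. Xirp1 was 22.7% of the UMIs of Xirp1 and Xirp2 at day 0, 37.0% at 1 dpi, 28.9% at 3 dpi and 14.2% at 7 dpi.

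**Figure D2:**
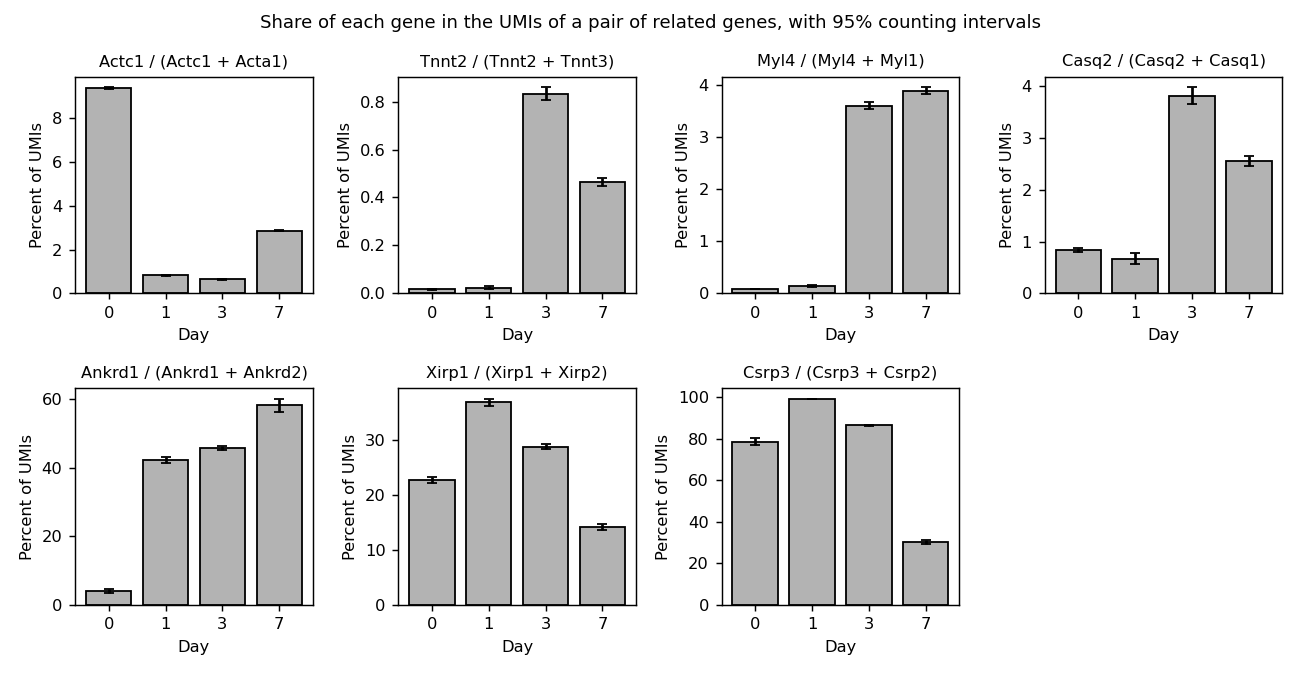
Percent of UMIs that each gene took of the sum of itself and a related gene, by day (1 section each, axes from 0 and different between panels); bars on the columns are Clopper-Pearson intervals at 95%. The partner of Csrp3 is Csrp2, known from smooth muscle and stromal cells, so that panel is not a share within muscle fibres. Actc1 drops from 9.35% to 0.638% at 3 dpi, Tnnt2, Myl4 and Casq2 have their higher shares at 3 and 7 dpi, and Csrp3 goes from 99.1% at 1 dpi to 30.2% at 7 dpi.

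Other genes of the Z-disc and of mechanical stress were mixed in their course. Of the 12 genes of the Z-disc and mechanical stress list, 7 were past 2-fold higher and 1 lower at 1 dpi, 5 higher and 0 lower at 3 dpi, and 0 higher and 2 lower at 7 dpi. Of all features, 17.4%, 33.3% and 32.7% were past 2-fold higher at those days and 11.4%, 8.26% and 2.13% lower. The list's median log2 ratio to day 0 was 1.42, 0.53 and -0.10, beside 0.15, 0.58 and 0.65 over all features. Cryab, which encodes the chaperone alphaB-crystallin, had 648 CPM at day 0, 6631 at 1 dpi, 2760 at 3 dpi and 644 at 7 dpi. Flnc, which encodes filamin C, had 283, 1929, 692 and 321 CPM, and Hspb7 had 84.6, 998, 588 and 120 CPM. Bag3 stayed between 146 and 155 CPM in the 4 sections. Over the 28 regions the genes most like Csrp3 were Hspb7 (0.96), Card19 (0.92), Cryab (0.91), Flnc (0.91) and Mrpl33 (0.89). Those most like Xirp1 were Klhl30 (0.92), Lmcd1 (0.89), Mknk2 (0.88), Klhl40 (0.88) and Flnc (0.87). Among those most like Ankrd1 were Psmb1 (0.94), Zfp593 (0.93), Atp6v1f (0.93) and Apoc2 (0.93), none of them on a muscle list.

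Csrp3 was uneven within sections, and at day 0 and 1 dpi it was highest in the region led by slow-fibre genes. In uninjured muscle 71.3% of its UMIs lay in the slow-fibre region 3, with 20.8% of the spots, at 129 CPM, against 7.06 CPM in region 1. The 25% of spots with the lowest share of muscle reference UMIs had 119 CPM, and the 25% with the highest share 6.36 CPM. Region 3 was also the region with the lowest such share, so a low share here does not stand for little muscle. At 1 dpi the slow-fibre region 7, with 127 spots, had 5489 CPM and 39.0% of the Csrp3 UMIs, and the other regions had 116 to 1070 CPM. Each of those 6 regions but one was above the highest uninjured region, so the high level was not confined to the slow-fibre region. Spearman's rho of Csrp3 with the slow and cardiac sarcomere list across spots was 0.268 at day 0, 0.375 at 1 dpi and 0.321 at 3 dpi, and with the Z-disc and mechanical stress list 0.488 at 1 dpi and 0.541 at 3 dpi (n = 2090 spots at day 0, 2154 at 1 dpi and 3020 at 3 dpi).

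Ankrd1 and Xirp1 were spread otherwise. Ankrd1 at 1 dpi ranged from 13.8 CPM in region 5, led by Inmt and Ufsp1, to 633 CPM in the slow-fibre region. Xirp1 ranged from 52.4 CPM in the same region 5 to 986 CPM in region 3. Region 5 had 196 spots, the highest muscle reference level of its section (40069 CPM) and the lowest macrophage level (188 CPM), and was also lowest for Csrp3. Across spots, rho of Ankrd1 and Xirp1 at 1 dpi was 0.317. At 3 dpi the 2 genes parted, since the macrophage-rich region 2, with 13677 CPM of the macrophage list and 3441 CPM of the muscle reference list, had 264 CPM of Ankrd1 and the lowest Xirp1 level, 50.2 CPM.

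A region in which developmental myosin genes led held most of the Tnnt2, Myl4 and Casq2 RNA at each of the later days. At 3 dpi, region 3 had 493 spots (16.3%) and was led by Myh3, Tnni1 and Myh7 (with another random seed, by Myh7 and Sln). It held 57.6% of the Tnnt2 UMIs, 58.4% of the Myl4 UMIs, 56.2% of the Casq2 UMIs, 52.5% of the Actc1 UMIs and 51.3% of the Csrp3 UMIs. Its levels were 158 CPM of Tnnt2, 551 CPM of Myl4 and 318 CPM of Actc1. At 7 dpi, region 7 had 230 spots (7.59%) and was led by Myh8, Gpnmb, Spp1 and Myh3. It held 67.8% of the Tnnt2 UMIs, 66.9% of the Myl4 UMIs and 63.3% of the Casq2 UMIs, and also 51.5% of the Ankrd1, 47.8% of the Csrp3, 38.8% of the Actc1 and 31.0% of the Xirp1 UMIs. Each of the 7 genes had its highest level of that section there (Csrp3 not at a finer clustering, where a region of 68 spots had 152 CPM), with 248 CPM of Tnnt2, 1370 of Myl4, 233 of Casq2, 103 of Ankrd1, 141 of Csrp3 and 113 of Xirp1. The summed macrophage list had 4300 CPM in the same region, the highest of the section, and the muscle reference list 24351 CPM. The part of macrophage-rich tissue in these levels was not tested.

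**Figure D3:**
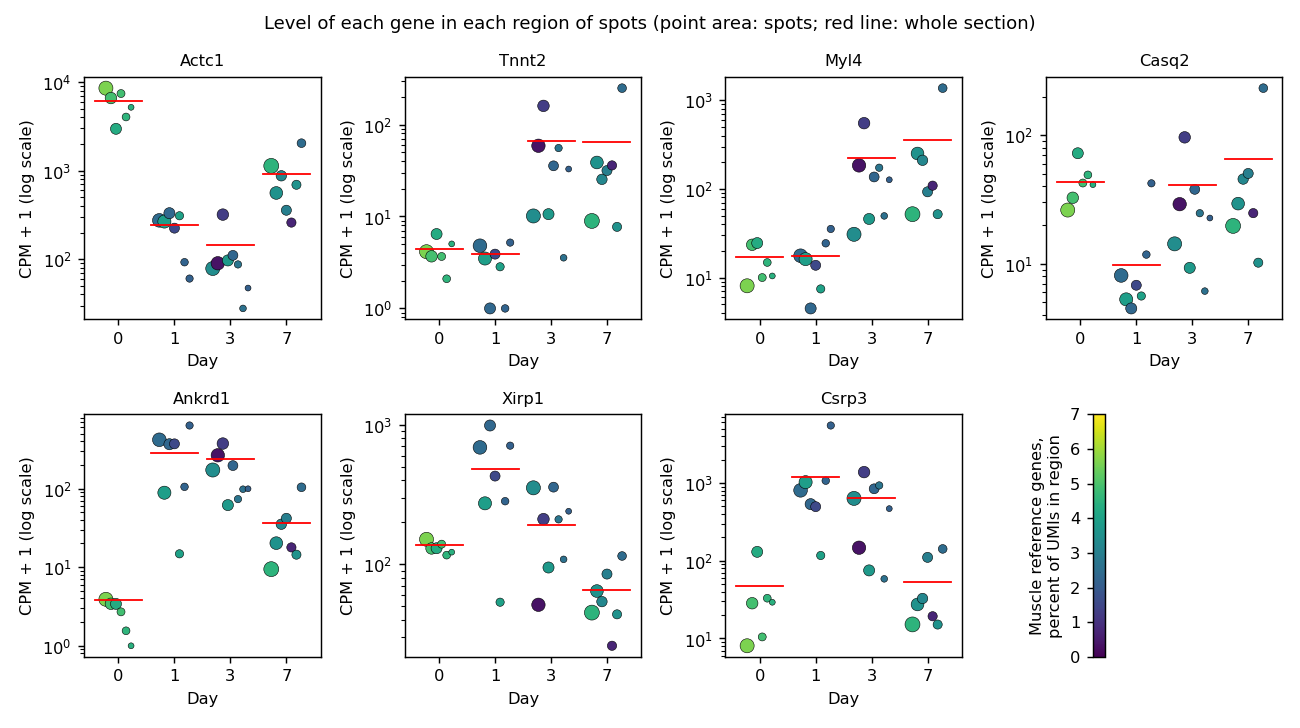
CPM + 1 (log axis) of each gene in every region of at least 20 spots, by day; each point is 1 region, its area grows with the number of spots, its colour gives the percent of UMIs from the muscle reference list, and red lines mark the whole section. In each panel 1 region of 230 spots lies above the other regions of 7 dpi, and for Csrp3 the slow-fibre region stands highest at day 0 (129 CPM) and 1 dpi (5489 CPM).

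At the scale of single spots the same genes were found together at 7 dpi, the section whose region led by Myl4, Tnnt2 and Casq2 prompted their choice. Spots were ranked by their Myl4 UMIs, so the Myl4 share below is high by construction. The 60 spots with most Myl4 UMIs, 2% of the section, held 5.65% of all UMIs but 48.5% of the Myl4 UMIs, 44.4% of the Tnnt2 UMIs and 36.7% of the Casq2 UMIs. They also held 46.9% of the Myh3 UMIs, 46.3% of the Myh8 UMIs and 57.4% of the UMIs of Gpnmb, a macrophage gene. They held 28.7% of the Csrp3 UMIs and 11.0% of the Xirp1 UMIs. At 3 dpi the 60 spots with most Myl4 UMIs held less, 25.2% of the Myl4 and 22.4% of the Tnnt2 UMIs, beside 4.22% of all UMIs. A single spot held up to 314 Myl4 UMIs at 7 dpi and 113 at 3 dpi. Spearman's rho of Tnnt2 and Myl4 across spots was 0.220 at 3 dpi and 0.196 at 7 dpi with spots thinned to 2000 UMIs (3020 and 2948 spots), and 0.305 and 0.254 with spots thinned to 4000 UMIs.

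**Figure D4:**
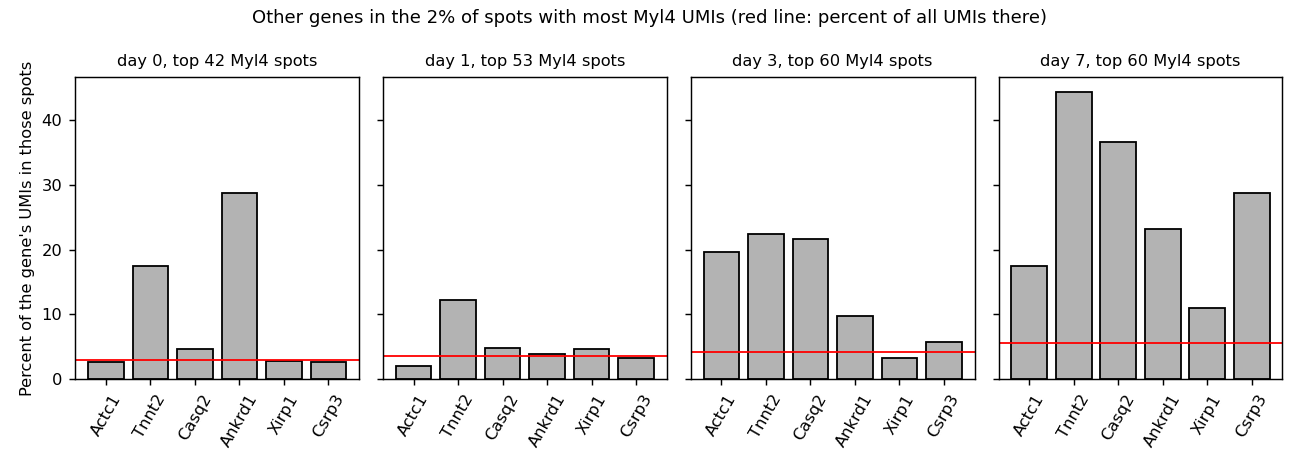
Percent of the UMIs of 6 genes found in the 2% of spots with most Myl4 UMIs, in each section; the red line gives the percent of all UMIs in those spots. At 7 dpi all 6 bars are above the line, with Tnnt2 at 44.4% and Casq2 at 36.7%. In the uninjured section Tnnt2 (17.4%) and Ankrd1 (28.7%) stand above it on few UMIs, and Casq2 (4.73%) by less.

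Spots with at least 1 UMI were compared after thinning each spot to 2000 UMIs, which left out 17, 513, 9 and 84 spots in order of day. For Actc1 99.3%, 34.0%, 17.6% and 64.2% of spots had a UMI, and 100%, 54.9%, 61.7% and 94.2% without thinning. For Csrp3 the thinned shares were 7.01%, 51.2%, 42.5% and 7.25%, and the unthinned ones 30.1%, 63.5%, 80.5% and 27.4%. For Ankrd1 they were 0.450%, 30.9%, 27.0% and 4.41% thinned and 3.75%, 49.3%, 72.1% and 20.5% unthinned. The thinned shares of Tnnt2 were 0.754%, 0.604%, 7.76% and 6.21%, and those without thinning 5.55%, 1.69%, 35.9% and 26.0%. Each share was set beside that in the region with least muscle reference RNA. There 8.70% of spots had a Tnnt2 UMI at 3 dpi (median depth 22751 UMIs) and 6.64% at 7 dpi (the cartilage region, median depth 12090.5 UMIs), no less than in the whole sections. For Ankrd1 the share there was 38.7% at 1 dpi (median depth 4005 UMIs) and 36.1% at 3 dpi, also no less than in the whole sections, and 3.05% at 7 dpi. Those regions still held muscle RNA, with 3441 CPM of the reference list at 3 dpi and 7193 at 7 dpi, and how much of such counts is RNA that spread from other spots was not tested. The section shares of Tnnt2 and of Ankrd1 at 1 and 3 dpi are therefore not read as shares of spots that express the gene. The levels of Tnnt2 did differ by region, with 248 CPM in region 7 against 34.9 CPM in the cartilage region at 7 dpi. For Csrp3 the region with least muscle had 19.9% at 3 dpi, under the 42.5% of the section.

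Of the genes that define heart muscle cells, most were at or near 0 UMIs. Of the 10 cardiomyocyte genes, Nkx2-5 had 0 UMIs in all 4 sections, Gata4 1 UMI in all, and Nppa, which encodes the atrial natriuretic peptide, 0, 2, 0 and 1 UMIs. The atrial light chain gene Myl7 had 2, 0, 0 and 4 UMIs, and the cardiac ryanodine receptor gene Ryr2 1, 0, 1 and 9. The whole list summed to 2.12 CPM at day 0, 2.62 at 1 dpi, 0.945 at 3 dpi and 2.77 at 7 dpi. The exceptions at some depth were Myh6 with 61 UMIs at day 0, Nppb with 30 UMIs at 1 dpi and Tnni3 with 80 UMIs at 7 dpi. The slow and cardiac sarcomere list holds mostly genes shared with slow skeletal fibres, but also Myh6, Myl7 and Tnni3 of the cardiomyocyte list. Of its 14 genes, 12, 13 and 12 had at least 10 UMIs in the comparisons of 1, 3 and 7 dpi with day 0. Of these, 7 were past 2-fold higher and 2 lower at 1 dpi, beside 17.4% and 11.4% of all features. At 3 dpi 4 were higher and 1 lower, beside 33.3% and 8.26%, so the count higher was near the share of all features. At 7 dpi 7 were higher and 2 lower, beside 32.7% and 2.13%. The fast myofibre list had 0 genes higher at any injured day and 8, 12 and 4 of 14 lower, beside the same shares of all features.

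Markers of other cells moved over the same days. The macrophage list had 325 CPM at day 0, 1373 at 1 dpi, 7254 at 3 dpi and 1813 at 7 dpi. At the injured days 7, 8 and 8 of its 8 genes were past 2-fold higher than day 0, beside 17.4%, 33.3% and 32.7% of all features. The neutrophil list had 1.48, 172, 74.4 and 9.99 CPM, the smooth muscle list 435, 235, 318 and 538 CPM, and the cartilage list 4.42, 28.7, 16.3 and 1203 CPM. Per muscle reference UMI, 6 genes were past 2-fold higher at 3 dpi than at day 0 and 1, Actc1, lower, beside 83.6% and 1.10% of all features. At 7 dpi 4 were higher and 1, Actc1, lower, beside 67.4% and 0.696%. The median of all features on this scale was 2.03 (log2) at 3 dpi and 1.28 at 7 dpi. The scale also moved with the tissue within a section. At 3 dpi the 25% of spots with the lowest muscle share, which had 13185 CPM of the macrophage list, had 832 Ankrd1 and 741 Myl4 UMIs per 10000 reference UMIs, and the 25% with the highest share 13.6 and 6.92. Across spots, rho of Myl4 with the macrophage list was 0.229 at 3 dpi and 0.207 at 7 dpi, and 0.0414 and 0.172 with the muscle reference share held fixed.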

How the data were processed

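Fresh frozen spatial transcriptomes of 4 tibial muscle sections were used. The authors deposited whole-number UMI counts for every gene in every spot, made with Space Ranger (version 1.2.0 per the file headers, another version in the study's methods) on the build mm10, per the labels. All 10835 deposited spots were used, and no doublet caller was run, since a spot covers several cells. Spot positions and images were not used here. Total counts per section ran from 16777832 to 56113066 UMIs, and intervals cover counting error only, since each day is 1 section.

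The 7 genes, their relatives, the gene lists and the comparisons were chosen with earlier results of these data known. Besides the 7 genes and their relatives, the genes named were those of the lists and, for each of the 7, the 5 genes with the most alike pattern over regions, of which 1 is not reported here. Leading genes of regions, the genes set beside the spots with most Myl4 UMIs and the small regions described at the end were chosen after values were seen.

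Counts were summed per section and divided by the section total (CPM). A gene with fewer than 3 UMIs was entered at 3 in ratios. Features with at least 10 UMIs over both sections of a comparison formed the background. For shares and Spearman's rho, spots were thinned to 2000 UMIs in 20 draws. Spots of each section were grouped into regions by Leiden clustering (2000 variable genes, 30 components, 15 neighbours, resolution 0.5, seed 1), made without the listed, mitochondrial and haemoglobin genes. Leading genes had at least 50 CPM and were ranked by fold over the rest of the section. Alternatives were edgeR TMM factors, DESeq2 size factors, other totals, other folds and filters, other thinning, a partial rho, and resolution 1 or seed 2. The ratios and their intervals were also tried on simulated Poisson counts, which hold no spread between sections or animals.

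Regions and figures were made in Python 3.11.15 with Scanpy 1.11.5, leidenalg 0.10.2 and matplotlib 3.10.9. Intervals came from SciPy 1.17.1, and tables from pandas 2.3.3. Scaling factors came from edgeR 4.0.16 and DESeq2 1.42.0 in R 4.3.3.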

Additional observations from a re-analysis of the deposited data

How the results depend on the processing

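No paired analysis was possible because each day is 1 section. Of the 23 CPM ratios of the 7 genes past 2-fold, over 5 comparisons, 23 stayed past it in the same direction when scaled by TMM (edgeR) or by the size factors of DESeq2, with a reduced total (no mitochondrial, haemoglobin or muscle genes), or in spots with at least 1000 UMIs. Per UMI of the muscle reference list 21 did, the exceptions being Xirp1 at 7 dpi against day 0 and at 3 against 1 dpi. Under these 5 settings 30 to 35 of all 35 ratios kept their sign, and none past 2-fold turned. Among those that turned, Xirp1 at 3 dpi and Csrp3 at 7 dpi against day 0 were -0.06 and -0.44 (log2) with TMM. The count of genes lower at 3 than at 1 dpi was 1 by CPM, 3 with TMM, with DESeq2, with the reduced total and at 1.5-fold, and 0 per muscle reference UMI and at 4-fold. The count lower at 7 dpi than at day 0 went from 2 to 1 per muscle reference UMI and at 4-fold, as Xirp1 no longer passed, and the count higher at 7 than at 3 dpi from 1 to 3 at 1.5-fold. The median log2 ratio of the 7 genes to day 0 at 1 dpi was -0.19 with TMM, -0.20 with the reduced total and 0.78 per muscle reference UMI, against 0.02. At 3 dpi it was 3.23, 3.30 and 5.23 in that order and 3.22 with DESeq2, against 3.77. At 7 dpi it was 0.00037, 0.28 and 1.23 and -0.028 with DESeq2, against 0.61. Per muscle reference UMI, the count higher than day 0 went from 6 to 5 at 3 dpi and from 4 to 3 at 7 dpi when Ckm and Cox6a2 were left out, and no count changed with Ttn and Neb alone. Thinning to 4000 UMIs gave larger rho in size for the 16 values computed. The highest region for Tnnt2 and Myl4 at day 0 moved with the resolution. The 1 dpi section was the shallowest, and the counts of Tnnt2 (49 UMIs) and Casq2 (147 UMIs) limit what can be said of it.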

Other observations

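At a clustering resolution of 1, the uninjured section held a region of 49 spots (2.33%) with 19.5% of its Tnnt2 UMIs and 17.4% of its Myl4 UMIs. Tnnt2 had 28.2 CPM there and Myl4 119 CPM, which is 8.29 and 7.41 times the level of the whole section. Its leading genes were Myl10, Cytl1, Myh13, Myh11 and Sln, of which Myl10 and Myh13 encode myosin chains that are rare in limb muscle and Myh11 the smooth muscle myosin. At the resolution used above these spots did not form a region of their own.

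The 42 spots of the uninjured section with most Myl4 UMIs held 55.7% of the 61 Myh6 UMIs, 17.4% of the Tnnt2 UMIs and 27.6% of the Myh3 UMIs, beside 2.93% of all UMIs. Myh6 encodes the cardiac alpha myosin heavy chain. The same spots held 1.58% of the Myh7 UMIs and 2.67% of the Actc1 UMIs, each under their share of all UMIs.

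Ankrd1 had 122 UMIs in the uninjured section, and 18 spots held 50% of them. A region of 14 spots led by the tendon genes Col22a1 and Tnmd had 79.8 CPM of Ankrd1 and 18.0% of its UMIs, the highest level of the section. This region is under the minimum of 20 spots used for regions elsewhere. A single spot of the section held up to 17 Ankrd1 UMIs, so such shares can rest on very few spots.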
